A study of Mus musculus with 8 samples.

Results

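The cells described here resembled type 2 innate lymphoid cells and came from the tongue epithelium of mice. They were chosen by their transcripts in all 8 single-cell libraries of the series. A cell had to hold 1000 to 5500 genes, at most 30000 UMIs (unique molecular identifiers, each counting 1 captured transcript) and at most 7% mitochondrial UMIs. The keratin genes Krt5, Krt14, Krt15, Krt13 and Krt6a together had to stay below 0.5% of its UMIs. It also needed at least 1 UMI of Ptprc, which encodes the leukocyte antigen CD45, UMIs of at least 2 of the 4 genes Il13, Il5, Calca and Il1rl1, and none of the T cell genes Cd3d and Cd8a. In all, 51 cells met the rule, of 10739 cells with Ptprc and keratin below that limit (0.475%), 25199 cells within the limits on genes, UMIs and mitochondrial share, and 42550 deposited cells. Because Il13, Il5, Calca, Il1rl1, Ptprc, Cd3d, Cd8a and the keratins selected the cells, their values are given as a description and without a test.

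All mice carried Krt14-CreERT, which puts the recombinase in Krt14-expressing basal epithelium, and LSL-rtTA, and all received tamoxifen into the tongue and doxycycline in the chow. Per the study's methods, the mice also carried an H2B-GFP reporter, a fluorescent histone. The N group had no oncogenic transgene. The E group added tetON_E6-E7, the papillomavirus oncogenes, the Y group added tetON_YAP1S127A, an active form of the transcriptional regulator YAP, and the EY group carried both. The driver thus directs the transgenes to epithelial cells and not to lymphoid cells. The study used littermates of 8 to 16 weeks, balanced for sex, and collected tissue 15 days after induction. Each group had 2 libraries of viable sorted cells, here called N1, N2, E1, E2, Y1, Y2, EY1 and EY2, and the label of N2 names more than 1 animal, so that library may pool mice. Values of a pair are always given in the order of these names. The labels do not say how far the libraries of a pair were prepared apart, so p-values measure the spread between these libraries, which may be technical.

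The libraries held 46483469 to 102427359 UMIs in 2916 to 8139 cells, and 586 to 3835 cells with Ptprc passed the limits. Yap1 was used to check the labels. In cells with at least 2% keratin UMIs and no Ptprc, Yap1 stood at 32.3 to 44.5 CPM (UMIs of the gene scaled to a common library total) in the N and E libraries and at 164 to 488 in the Y and EY libraries. Pairs of libraries shared 2 to 19 cell barcodes, over 28 pairs. Of the 51 cells, E2 supplied 18 (35.3%) and 48.8% of the UMIs, so levels are given library by library rather than pooled wherever a comparison rests on them.

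Type 2 innate lymphoid cells are tissue-resident lymphocytes that carry no rearranged antigen receptor on their surface. Epithelial alarmins such as IL-33, TSLP and IL-25, lipid mediators and neuropeptides activate them, and they answer with IL-13, IL-5, amphiregulin and GM-CSF. The transcription factor GATA3 is needed for their development and for their cytokine genes. At barrier surfaces they are known for eosinophil recruitment, mucus and repair responses, and Il1rl1 encodes ST2, their receptor for IL-33. Calca encodes calcitonin gene-related peptide, a neuropeptide that activated type 2 innate lymphoid cells also make.

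The 4 marker genes of the rule lie on 3 chromosomes of the mouse assembly GRCm38. Il13 occupies chr11:53631324-53634702 on the minus strand and Il5 occupies chr11:53720794-53725106 on the plus strand, within the cytokine cluster that also holds Il4. Calca lies at chr7:114631478-114636357 on the minus strand, and Il1rl1 at chr1:40429570-40465415 on the plus strand with 2 annotated start sites. The 250 bases before each start are shown because Gata3, the factor that binds GATA sites, was found in most of the cells and had no place in the rule. The sequences are those of RefSeq on GRCm38.p6, written 5′ to 3′ on the strand of the gene, with capitals marking every match on either strand to the motif AGATAA or the motif AGATAG, and likewise the motif TGATAA or the motif TGATAG.
Il13 (chr11:53634703-53634952, minus strand): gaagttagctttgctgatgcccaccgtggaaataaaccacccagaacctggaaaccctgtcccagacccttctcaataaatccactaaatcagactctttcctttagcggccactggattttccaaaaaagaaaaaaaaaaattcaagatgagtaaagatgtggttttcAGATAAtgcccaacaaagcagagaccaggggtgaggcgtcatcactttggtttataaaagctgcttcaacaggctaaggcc
Il5 (chr11:53720544-53720793, plus strand): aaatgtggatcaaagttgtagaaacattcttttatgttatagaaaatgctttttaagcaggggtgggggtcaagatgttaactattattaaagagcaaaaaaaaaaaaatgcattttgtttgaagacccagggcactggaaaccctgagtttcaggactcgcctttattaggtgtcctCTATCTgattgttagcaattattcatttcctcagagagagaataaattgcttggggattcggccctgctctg
Calca (chr7:114636358-114636607, minus strand): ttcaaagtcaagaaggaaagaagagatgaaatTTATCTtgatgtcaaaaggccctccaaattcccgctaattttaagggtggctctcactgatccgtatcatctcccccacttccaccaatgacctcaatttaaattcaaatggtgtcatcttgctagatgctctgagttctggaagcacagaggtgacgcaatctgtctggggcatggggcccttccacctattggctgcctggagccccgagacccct
Il1rl1 upstream start (chr1:40429320-40429569, plus strand): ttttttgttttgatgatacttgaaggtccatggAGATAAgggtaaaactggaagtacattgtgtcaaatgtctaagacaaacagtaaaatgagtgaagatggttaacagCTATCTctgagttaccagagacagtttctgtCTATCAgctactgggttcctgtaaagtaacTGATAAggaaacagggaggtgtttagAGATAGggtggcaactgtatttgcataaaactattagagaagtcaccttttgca
Il1rl1 downstream start (chr1:40439379-40439628, plus strand): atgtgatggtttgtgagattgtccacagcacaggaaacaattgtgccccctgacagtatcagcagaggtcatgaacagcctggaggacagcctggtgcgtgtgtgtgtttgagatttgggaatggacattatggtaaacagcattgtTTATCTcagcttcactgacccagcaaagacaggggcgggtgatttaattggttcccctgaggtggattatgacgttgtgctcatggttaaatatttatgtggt

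Each of the 5 windows held a match. Il13 had AGATAA 81 bases before its start, Il5 had the reverse-strand match CTATCT 72 bases before its start, and Calca had TTATCT at 218 bases. The upstream start of Il1rl1 had 5 matches and the downstream start had 1. Over both strands, among 32851 RefSeq promoters cut to the same 250 bases, 26.5% held at least 1 match and 1.35% held at least 3. A match of letters describes the window and does not show that GATA3 bound there.

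The question the 4 genotypes put to these cells is whether their share of the immune compartment moved with active YAP or with E6-E7. The cells were rare in every library and their number varied as much within genotypes as between them. N1 held 10 such cells, 1.71% of its 586 cells with Ptprc (95% exact binomial interval 0.821 to 3.12%), and N2 held 4 of 1339, or 0.299% (0.0815 to 0.763%). E1 held 3 of 645, or 0.465% (0.0960 to 1.35%), and E2 held 18 of 923, or 1.95% (1.16 to 3.06%). Y1 held 4 of 3835, or 0.104% (0.0284 to 0.267%), and Y2 held 7 of 1111, or 0.630% (0.254 to 1.29%). EY1 held 5 of 1543, or 0.324% (0.105 to 0.755%), and EY2 held 0 of 757, which allows a share of up to 0.486% by the same interval. These intervals and limits cover counting error only. The N and E pairs each had a library above 1.5% and a library below 0.5%, while no Y or EY library passed 0.7%.

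**Figure D1:**
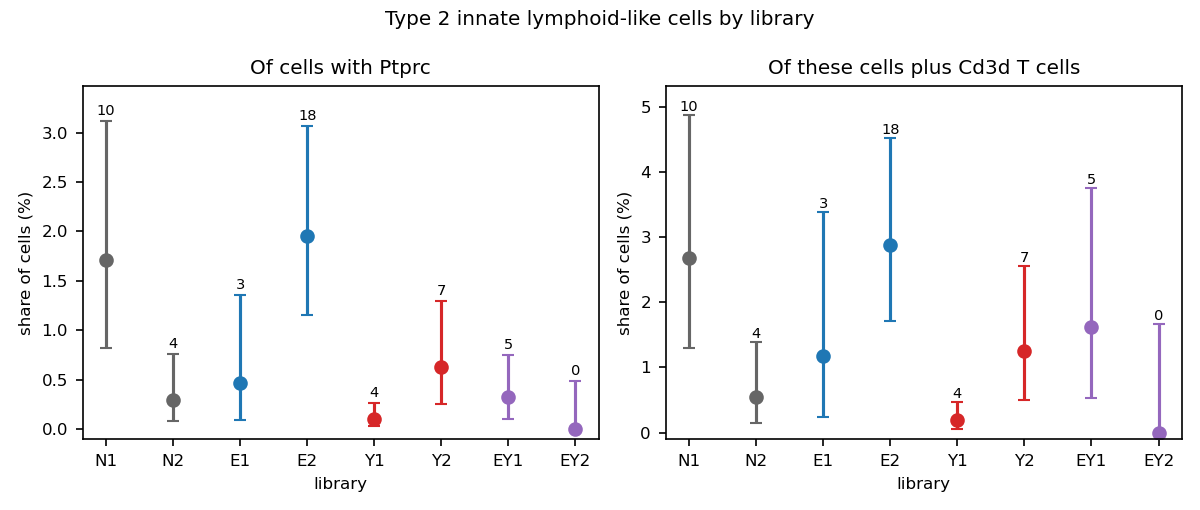
Share of type 2 innate lymphoid-like cells in each library, as a percent of cells with Ptprc (left) and of these cells plus T cells with Cd3d (right). Points are libraries, bars are 95% exact binomial intervals and the number above each bar is the cell count; N1 and E2 stand highest in both panels and EY2 is at 0.

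Averaged over libraries, the share was 0.265% ± 0.279 (SD, n = 4) with the YAP transgene and 1.11% ± 0.844 (n = 4) without it. The difference of -0.84 percentage points was within the spread between libraries (2-sided exact permutation test over 70 labellings, p = 0.143, adjusted p = 0.40 over 4 tests; the smallest p this design allows is 0.0286). It was -0.037 points with T cell receptor transcripts excluded, -0.26 with all cells as denominator and -0.32 with at least 3 of the 4 genes. Y1 and EY2 lay below every N and E library, and Y2 and EY1 lay among them. With and without E6-E7 the means were 0.685% ± 0.866 and 0.685% ± 0.715 (n = 4 each, exact permutation p = 1). Because the Y and EY libraries held other immune cells in different numbers, the same comparison was made against T cells, defined by at least 1 UMI of Cd3d.

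Relative to T cells, N1 and E2 again stood highest. The cells made up 2.68% and 0.546% of themselves plus T cells in the N pair and 1.17% and 2.88% in the E pair. The Y pair stood at 0.186% and 1.25%, EY1 at 1.62% and EY2 at 0%, where 219 T cells allow up to 1.37%. The mean was 0.765% ± 0.794 (SD, n = 4) with the YAP transgene and 1.82% ± 1.14 without it (difference -1.06 points, exact permutation p = 0.20, adjusted p = 0.40). For E6-E7 the means were 1.42% ± 1.19 and 1.17% ± 1.10 (n = 4 each, exact permutation p = 0.771, adjusted p = 1). No comparison of the shares passed its threshold in either direction.

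Sequencing depth entered the rule, since 2 scarce transcripts had to be seen in the same cell. The median number of UMIs per selected cell was 3061 and 5708.5 in the N pair, 3283 and 10244 in the E pair, 7085.5 and 10311 in the Y pair and 5872 in EY1. When every cell was thinned to 2000 UMIs before the rule was applied, 23 cells remained, 7 and 0 in the N pair, 3 and 8 in the E pair, 1 and 1 in the Y pair and 3 and 0 in the EY pair. The YAP difference was then -0.68 points (exact permutation p = 0.143). N1, E1 and E2 stood highest at equal depth.

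A second rule, added after the values were seen, chose cells without Il13, Il5, Calca and Il1rl1. It asked for at least 2 of Gata3, Kit, Cysltr1, Hs3st1 and Il17rb, with Cd3d, Cd3e, Trac, Cd8a, Ncr1 and Foxp3 at 0, and found 204 cells. Their share of cells with Ptprc was 4.61% and 3.51% in the N pair, 1.24% and 3.14% in the E pair, 1.07% and 3.06% in the Y pair and 0.972% and 0.396% in the EY pair. The difference with the YAP transgene was -1.75 points (exact permutation p = 0.0571), and with E6-E7 it was -1.62 points (exact permutation p = 0.143). The N libraries stood above all others under this rule, and the EY libraries stood lowest.

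The 4 genes of the rule were not spread evenly over the libraries. Il13, the cytokine of mucus and smooth muscle responses, had a UMI in 35 of the 51 cells, at 6 of 10 and 0 of 4 in the N pair, 2 of 3 and 12 of 18 in the E pair, 4 of 4 and 7 of 7 in the Y pair and 4 of 5 in EY1. Il5, the eosinophil growth factor, was in 27 cells, at 4 and 0 in the N pair, 2 and 12 in the E pair, 2 and 4 in the Y pair and 3 in EY1. Thus none of the 4 cells of N2 carried either cytokine, and all 4 were selected by Calca with Il1rl1.

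Il1rl1 was found in 40 cells, at 8 and 4 in the N pair, 1 and all 18 in the E pair, 3 and 2 in the Y pair and 4 in EY1. Its level ran from 28.5 CPM in Y2 to 375 in EY1. Calca was found in 24 cells, at 4 and 4 in the N pair, 2 and 8 in the E pair, 1 and 1 in the Y pair and 4 in EY1. Y1 and Y2 therefore held Calca in 2 of their 11 cells, whereas EY1 reached the highest Calca level, 1646 CPM, against 14.2 in Y2. In EY1, 1 cell held 34 of the 57 Calca UMIs, and the level in Y2 was a single UMI.

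Within cells the cytokines and the receptor combined in several ways. The commonest pair was Il13 with Il1rl1 alone, in 12 cells, followed by Il13 with Il5 alone and Calca with Il1rl1 alone, in 7 cells each. All 4 transcripts were seen together in 6 cells, 4 of them in E2. Il13 and Il5 were both present in 18 cells, Il13 without Il5 in 17 and Il5 without Il13 in 9. Exactly 2 of the 4 genes were seen in 33 cells, of which 27 also held Gata3. Just outside the rule, 112 cells with Ptprc and without Cd3d and Cd8a held exactly 1 of the 4, namely Il1rl1 in 71, Il13 in 24, Calca in 15 and Il5 in 2, and 53 of them held Gata3.

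**Figure D2:**
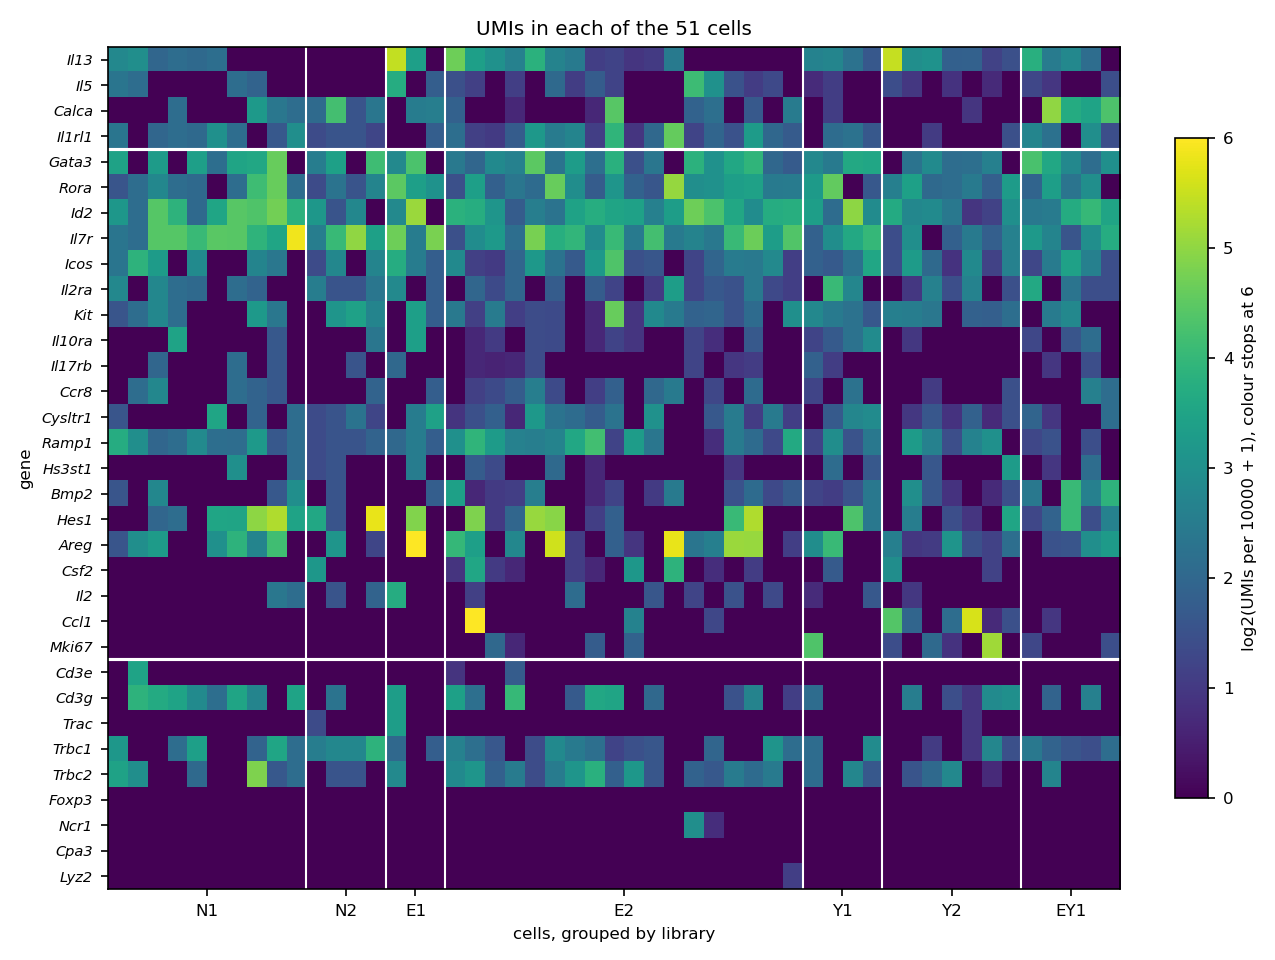
Each column is 1 of the 51 cells, grouped by library, and each row is a gene; colour gives a log2 scale of UMIs relative to the cell's total, with 1 added. Horizontal white lines part the 4 genes of the rule (top), genes of innate lymphoid function (middle) and genes of other cell types (bottom); N2 is dark for Il13 and Il5, and Foxp3 and Cpa3 are dark in all cells.

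The 51 cells held most of the Il5 transcripts of the series but a minority of the Il13 transcripts. Of 87 Il5 UMIs in all cells within the limits, 61 (70.1%) were in these 51 cells, and T cells with Cd3d held 19.5%. Of 1002 Il13 UMIs they held 201 (20.1%), while T cells held 67.9%. Keratin-high cells without Ptprc, which should lack the gene, held 1 Il13 UMI in 6837 cells and no Il5. Il4, the neighbouring cytokine of the cluster, had 29 of its 52 UMIs in these cells, but 22 of them were in 1 cell of E1. T cells thus held more of the Il13 UMIs than the selected cells did, and in Y1 they held 294 of 337.

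Gata3 was the first check of the label, since the rule did not use it. It had a UMI in 43 of the 51 cells (84.3%), at 7 of 10 and 3 of 4 in the N pair, 2 of 3 and 17 of 18 in the E pair, 4 of 4 and 5 of 7 in the Y pair and 5 of 5 in EY1. Its level was 870 CPM and 840 in the N pair, 632 and 650 in the E pair, 708 and 370 in the Y pair and 982 in EY1. In conventional CD4 T cells, taken as Cd3d and Cd4 without Foxp3 and Cd8a, it ran from 47.6 to 192, in regulatory T cells with Foxp3 from 22.2 to 203 and in natural killer cells with Ncr1 from 59.5 to 154. Gata3 was thus higher in the selected cells than in each of these classes in all 7 libraries, and the ranges did not overlap. Unthinned, Gata3 was seen in 48.8% of conventional CD4 T cells, 47.0% of regulatory T cells, 40.2% of natural killer cells and 0.117% of keratin-high cells, which should lack it. After thinning every cell to 2000 UMIs, it was seen in 62.7% of the selected cells, 24.3% of conventional CD4 T cells, 23.6% of regulatory T cells and 17.4% of natural killer cells. These differences are given as a description, since the cells were selected on related transcripts. CD8 and gamma-delta T cells were not part of this comparison. T cells with Cd3d held 71.9% of all Gata3 UMIs within the limits, and the selected cells held 6.92%.

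Among the lineage factors that innate lymphoid cells share with T cells, Rora, a nuclear receptor needed for type 2 innate lymphoid cells, was in 48 cells and Id2, the repressor that marks innate lymphoid fate, in 49. Unlike Gata3, neither stood apart at equal depth. Rora was seen in 58.8% of the thinned selected cells and 55.3% of conventional CD4 T cells, and Id2 in 72.5 and 72.9%. Tox was seen in 43.1% against 14.8% and Ahr, the aryl hydrocarbon receptor, in 39.2% against 16.8%. Tcf7 was lower, at 9.80% against 20.6%. Zbtb16 and Gfi1, both linked to early or active stages of the lineage, had no UMI in the 51 cells, and Pparg was in 6. Of the 16 factors on the list found in at least 10% of the cells, 4 were higher than in conventional CD4 T cells in at least 6 of the 7 libraries. Over all 6100 genes found in at least 10% of the cells, 5.98% were.

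The receptors that start and sustain the cells were present with gaps. Il7r, the IL-7 receptor of all innate lymphoid cells, was in 50 of 51 cells, but conventional CD4 T cells held it in 65.4% of thinned cells against 76.5%. Kit, the stem cell factor receptor, set the cells apart more clearly from conventional CD4 T cells and natural killer cells. Its CPM in CD8 and gamma-delta T cells was not compared. T cells with Cd3d held 42.3% of all Kit UMIs within the limits, and the selected cells held 3.73%. In Y1, T cells held 968 of 1413 Kit UMIs. Kit was in 39 cells and stood at 290 CPM and 546 in the N pair, 316 and 330 in the E pair, 472 and 299 in the Y pair and 231 in EY1. The highest library of conventional CD4 T cells stood at 41.1 and that of natural killer cells at 169, so the ranges did not overlap. Unthinned, Kit was seen in 10.9% of conventional CD4 T cells and 36.5% of natural killer cells, and thinning gave 47.1% of the selected cells against 4.86% and 17.6%.

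Il17rb, the receptor for IL-25, was in 16 cells and in 9.80% of thinned selected cells against 0.405% of conventional CD4 T cells and none of the natural killer cells. Il10ra was seen in 23.5% of thinned selected cells against 2.83%, and Il9r, the receptor for the survival factor IL-9, in 15.7% against 2.83%. Crlf2, the TSLP receptor chain, was not set apart, at 15.7% against 18.8%. Il1rap, the partner chain that ST2 needs for signalling, had a UMI in only 1 of the 51 cells and in at most 2.21% of any thinned T cell class. Icos, a costimulatory receptor, and Il2ra, the alpha chain of the IL-2 receptor, were in 45 and 37 cells, and regulatory T cells held both more often at equal depth (80.4% against 60.8% and 53.3% against 31.4%). Of the 19 receptors on the list outside the rule that were found in at least 10% of the cells, 6 were higher than in conventional CD4 T cells in at least 6 libraries, beside 5.98% of all genes.

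Receptors for lipid mediators and neuropeptides included Ramp1, in 45 cells, Gpr183, an oxysterol receptor, in 39, and Cysltr1, the leukotriene D4 receptor through which mast cell products reach these cells. Cysltr1 was in 37 cells, at 174 CPM and 210 in the N pair, 527 and 254 in the E pair, 236 and 128 in the Y pair and 144 in EY1. No library of conventional CD4 T cells passed 38.9, none of natural killer cells passed 15.4 and none of regulatory T cells passed 44.3. After thinning it was seen in 35.3% of the selected cells, 3.44% of conventional CD4 T cells and 4.58% of myeloid cells. Ptgdr2, which encodes the prostaglandin D2 receptor CRTH2, was in 6 cells, 5 of them in E2, and in none of the thinned conventional CD4 T cells. Ptgir, the prostacyclin receptor, was in 11.

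The receptor for calcitonin gene-related peptide is made of Calcrl and Ramp1. Ramp1 was in 45 cells and Calcrl in 15, with Calcrl in 7.84% of thinned selected cells against 1.62% of conventional CD4 T cells. Ramp1 was at 58.8% against 37.9% and equally at 58.8% in gamma-delta T cells, so it did not single out the selected cells. Nmur1, the neuromedin U receptor typical of intestinal and lung type 2 innate lymphoid cells, had no UMI in the 51 cells, and Vipr1 had none. Of the 11 receptors of this kind found in at least 10% of the cells, 3 were higher than in conventional CD4 T cells in at least 6 libraries, beside 5.98% of all genes.

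**Figure D3:**
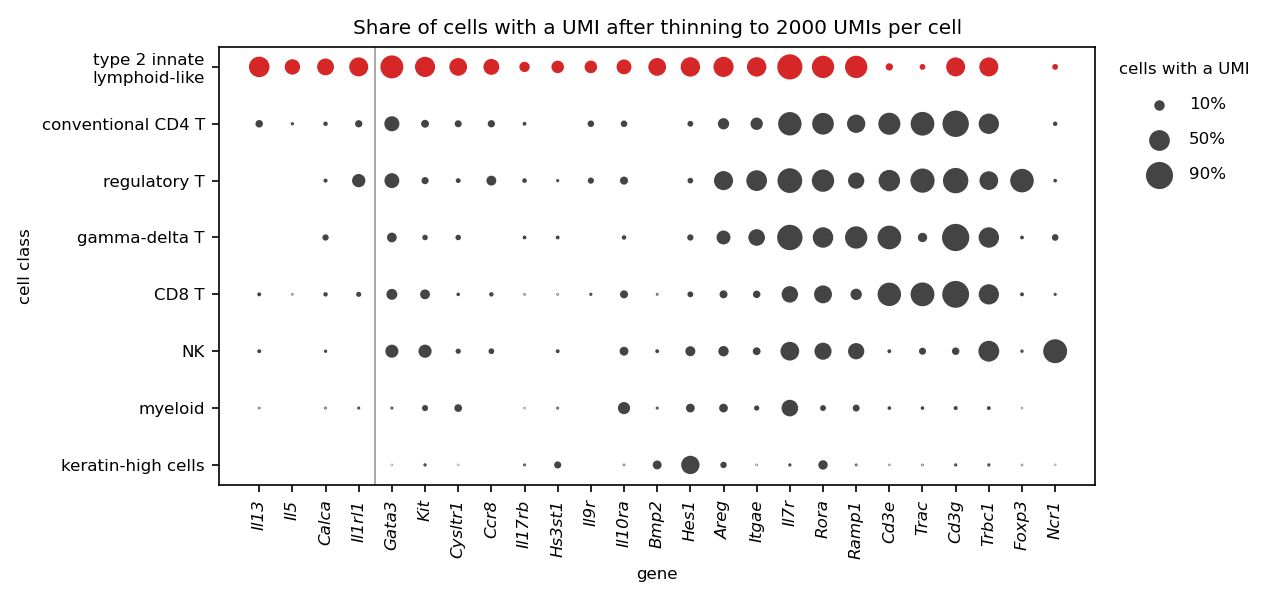
Share of cells with a UMI of each gene (columns) in each class (rows) after thinning to 2000 UMIs per cell; dot area gives the share. Genes left of the grey line were used by the rule; the selected cells, in red, hold Gata3 at 62.7% and Bmp2 at 35.3%, while Trac and Cd3e are below 4%.

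Products beyond the cytokines of the rule were uneven. Areg, which encodes the repair factor amphiregulin, was in 36 cells, at 638 CPM and 210 in the N pair, 1896 and 995 in the E pair, 708 and 285 in the Y pair and 346 in EY1. It exceeded conventional CD4 T cells in all 7 libraries, but regulatory T cells, at 332 to 1350, were exceeded in 2, E1 and E2. The E1 level was 18 UMIs in 1 cell. Csf2, the gene for GM-CSF, was in 14 cells, 10 of them in E2, and none of the cells of N1, E1 and EY1 held it. Il2 was in 14 cells, and in 9.80% of thinned selected cells against 3.44% of conventional CD4 T cells. Ccl1, which encodes a ligand of CCR8, was in 10 cells, 6 of them in Y2, where it stood at 1082 CPM, 3 in E2, where it stood at 2503, and 1 in EY1. These levels rest mostly on single cells, since 1 cell held 485 of the 493 Ccl1 UMIs in E2 and 1 held 55 of the 76 in Y2. Il9, Il10 and Ccl3 had no UMI in the 51 cells. Of the 7 products outside the rule found in at least 10% of the cells, Areg, Il4 and Il2 were higher than in conventional CD4 T cells in at least 6 libraries, beside 5.98% of all genes. Il4 rested on 1 or 2 cells in each library that held it.

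**Figure D4:**
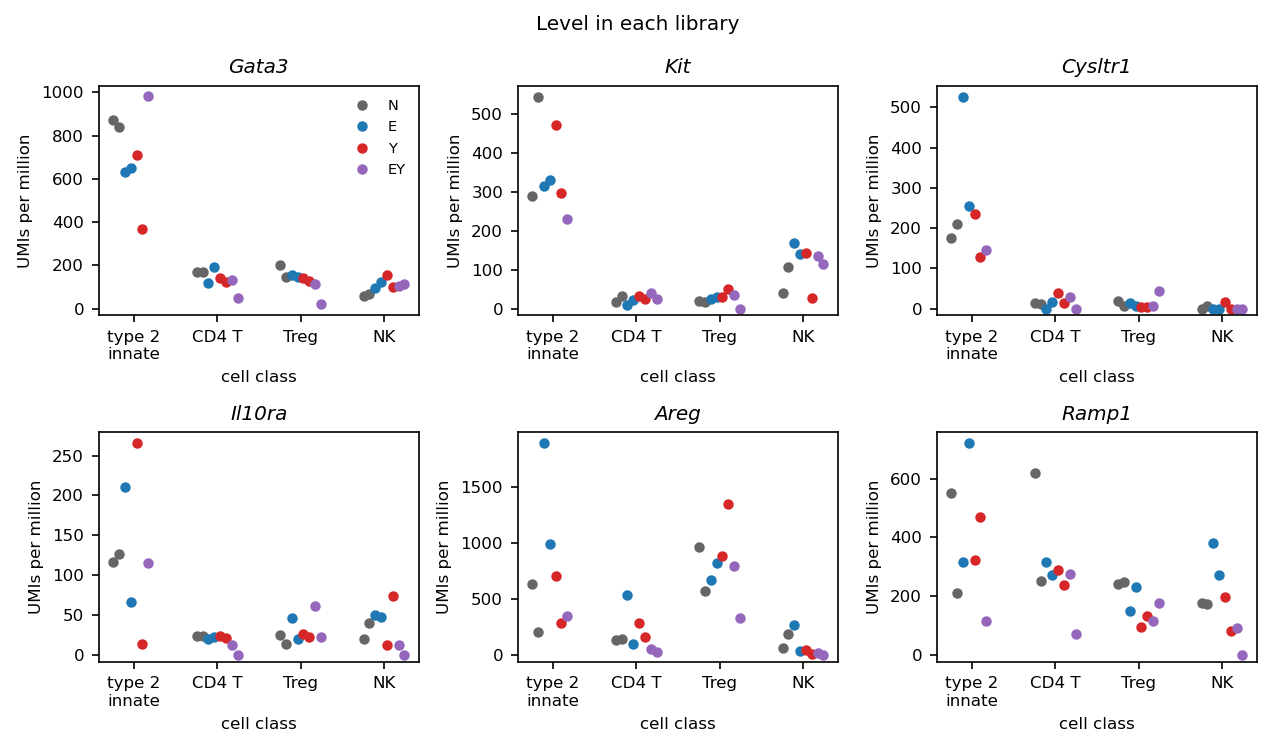
CPM of 6 genes in each library, for the selected cells, conventional CD4 T cells, regulatory T cells (Treg) and natural killer cells (NK). Each point is 1 library coloured by genotype; Gata3 and Kit in the selected cells lie above every library of the other classes, while Areg overlaps with regulatory T cells and Ramp1 with conventional CD4 T cells.

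The 20 genes with the highest ratio of level in the selected cells over all other cells with Ptprc included the 4 genes of the rule and Gata3. Bmp2, a bone morphogenetic protein, ranked highest among the genes outside the rule, with a mean over libraries of 209 CPM against 2.23. It was in 32 of the 51 cells and in 35.3% after thinning, against 0.0726% of CD8 T cells and none of the conventional CD4 T cells. Keratin-high cells held Bmp2 in 6.67% after thinning and in 26.9% unthinned. Hes1, a target of Notch signalling, stood at 811 against 34.1, and Jag1, a Notch ligand, at 140 against 8.05. The chemokine receptor Ccr8 stood at 113 against 7.69 and the integrin subunit Itgb3 at 118 against 9.10. Npnt, Ptpn13, Hlf, Slain1, Pxdc1, Prnp and Ccdc184 were also on the list, at ratios of 9.12 to 30.6.

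Hes1 was seen in 43.1% of thinned selected cells and in 38.0% of keratin-high cells, against at most 8.94% of any other immune class. It was unequal between libraries. The level stood at 1160 CPM and 2016 in the N pair, 632 and 853 in the E pair, 354 and 199 in the Y pair and 462 in EY1. The 4 libraries without the YAP transgene all lay above the 3 with it, yet each of these libraries rests on 3 to 18 cells. The share of all genes with such an order was not counted, so the order of Hes1 is given as a description only. Bmp2 had no such order, at 174 and 42.0 in the N pair, 105 and 157 in the E pair, 177 and 171 in the Y pair and 635 in EY1.

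Surface genes gave further description. Cd69 and Itgae, both linked to residence in epithelium, were in 42 and 41 cells. Itgae was seen in 43.1% of thinned selected cells, 15.2% of conventional CD4 T cells and a larger share of regulatory T cells. Hs3st1, a heparan sulfate sulfotransferase, was in 16 cells and in 15.7% after thinning, against at most 0.471% of any other immune class and 3.61% of keratin-high cells. The keratin-high cells held 45.2% of all its UMIs and the selected cells 0.762%. Klrg1, a marker of inflammatory type 2 innate lymphoid cells, was in 7 cells and Arg1, the arginase they can express, in 6. S1pr1, which guides exit from tissue, was in 2 cells. Of the 14 surface and metabolic genes found in at least 10% of the cells, 3 were higher than in conventional CD4 T cells in at least 6 libraries, beside 5.98% of all genes.

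Transcripts of the T cell receptor complex were checked next, because the rule excluded only Cd3d and Cd8a. The alpha chain gene Trac was in 3 of the 51 cells and Cd3e in 3, and after thinning they were in 1.96% and 3.92% of the selected cells against 67.2% and 57.5% of conventional CD4 T cells. Cd4 was in 1 cell and Cd8b1 in none. By contrast Cd3g was in 28 cells, Trbc1 in 36 and Trbc2 in 33. Natural killer cells, which make no T cell receptor, held Trbc1 in 50.6% of thinned cells and Trbc2 in 29.2%, against 41.2 and 45.1% of the selected cells, but Cd3g in only 4.24% against 41.2%. Tcrg-C4 was in 23 of the selected cells. When every cell with Cd3e, Cd3g, Trac, Trbc1 or Trbc2 was left out, 4 cells remained; with only Cd3e and Trac excluded, a choice made after the values were seen, 45 remained. The summed level of the 8 listed T cell receptor genes was 635 to 1740 CPM in the selected cells and 557 to 3316 in the other cells with Ptprc. Whether some of the 51 cells were T cells whose Cd3d was missed was not tested.

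A cell of E1 held the most type 2 cytokine together with T cell transcripts. It held 14 UMIs of Il13, 22 of Il4 and 4 of Il5, and also 3 of Trac and 2 of Cd4. From the other side, 11 of 496 conventional CD4 T cells (2.22%) held at least 2 of the 4 marker genes, as did 4 of 551 regulatory T cells and 3 of 2755 CD8 T cells. None of 239 gamma-delta T cells did, which allows up to 1.26%, and none of 4152 myeloid cells did, which allows up to 0.0723%. These 2 limits are 3 divided by the number of cells.

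Markers of mast cells, basophils and eosinophils, which also make type 2 cytokines, had no UMI. The 8 mast cell genes (Cpa3, Mcpt4, Cma1, Tpsb2, Tpsab1, Fcer1a, Ms4a2 and Hdc), the 3 basophil genes (Mcpt8, Cd200r3 and Gata2) and the 4 eosinophil genes (Prg2, Epx, Siglecf and Ccr3) all had 0 UMIs in the 51 cells. Foxp3, which defines regulatory T cells, was at 0, but Ikzf2, Tnfrsf9 and Ctla4 of the same list were in 14, 8 and 4 cells. Tbx21, Gzma and Klrb1c of natural killer and type 1 innate lymphoid cells were at 0. Klrk1 of that list was in 30 of the 51 cells, and Prf1, Gzmb and Eomes were in 4, 2 and 1. Klrk1 was higher than in conventional CD4 T cells in at least 6 libraries, beside 5.98% of all genes. Ncr1 was in 2 cells of E2. Of the type 3 genes, Il23r was at 0 and Il22 was in 4 cells, 3 of them in N1. Of the B and plasma cell genes Cd79a, Ms4a1 and Jchain were at 0 and Cd79b was in 6 cells.

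Transcripts of myeloid, dendritic and epithelial cells differed between libraries, with the highest sums in EY1, Y2 and E1. The 8 myeloid genes summed to 0 to 148 CPM in 6 libraries and to 1617 in EY1, where all 5 cells held S100a8 and S100a9 and the other cells with Ptprc summed to 114930. C1qa was at 0 and Lyz2 was in 1 cell. The 5 dendritic and Langerhans genes, among them Cd74 and H2-Ab1, summed to 1652 and 3217 in the Y pair and to 0 to 635 in the other libraries, against 4440 to 22727 in the other cells with Ptprc, with Cd207 and Itgax at 0. The sums of the Y pair rest largely on 1 cell each. In Y1, 1 cell held 30 Cd74 UMIs and no other more than 7, and in Y2, 1 cell held 133 and no other more than 29. The 7 epithelial genes summed to 85.4 to 1159 in the selected cells against 151 to 679 in the other cells with Ptprc, and E1, at 1159 against 429, was the highest. The 4 stromal genes summed to 0 to 105 with Col1a1 at 0. Their part in any result was not tested.

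State genes varied between the libraries. Mki67, a marker of cycling cells, was in 11 of the 51 cells, at 0 of 17 in N1, N2 and E1, 4 of 18 in E2, 1 of 4 in Y1, 4 of 7 in Y2 and 2 of 5 in EY1. The 12 cell cycle genes summed to 105 to 2239 CPM in the N and E libraries, to 6344 in Y1, to 4512 in Y2 and to 462 in EY1. In Y1, Mki67 and Top2a were each seen in 1 of the 4 cells. In Y2, 1 cell held 54 UMIs of Mki67 and 29 of Top2a, and no other cell there held more than 3 and 4. None of the 9 cell cycle genes found in at least 10% of the cells was higher than in conventional CD4 T cells in as many as 6 libraries, a share near the 5.98% of all genes.

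Some immediate early genes, which are induced within minutes of a stimulus, were higher than in conventional CD4 T cells. Of the 14 listed, Nr4a1, Nr4a2, Junb, Fos, Fosb and Zfp36 were higher than in conventional CD4 T cells in at least 6 of the 7 libraries, beside 5.98% of all genes. Fosb was higher in all 7 and stood at 228 to 1044 CPM. Nr4a1, an early gene of antigen receptor signalling in T cells, was in 32 cells. The list summed to 6689 in Y2 and to 24224 in EY1, the extremes of the 7 libraries.

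Interferon-stimulated genes were compared with all other cells with Ptprc, a wider set than conventional CD4 T cells. Of these 10688 other cells, 4152 were myeloid. All 7 of the 12 listed genes that were found in at least 10% of the cells were lower than in the other cells with Ptprc in at least 6 of the 7 libraries, and 11.1% of all genes were. The list summed to 116 and 126 CPM in the N pair, 1685 and 1442 in the E pair and 384 and 1124 in the Y pair, against 1403 to 7926 in the other cells of the same libraries. EY1 was the exception at 4620 against 2554, with Isg15 in all 5 of its cells. For glycolysis and hypoxia, 4 of 10 such genes were lower in at least 6 libraries and 1 was higher, where 11.6% of all genes were higher.

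Gene levels inside the selected cells could not be compared between genotypes at the planned minimum of 10 cells, because only N1 and E2 reached it. With a minimum of 5 cells N1, E2, Y2 and EY1 entered an additive model for YAP and E6-E7, which left 1 residual degree of freedom. Each genotype thus had 1 library, and a gene that was not called is not shown to be unchanged. Of 774 genes tested, none was called for YAP (0%) and none for E6-E7 (0%) in edgeR's quasi-likelihood test at an adjusted p of 0.05. At an unadjusted p under 0.05 there were 24 and 9 genes, and DESeq2 called none for either, with 11 and 4 genes at that unadjusted level. Gata3 had a log2 fold change of -0.19 with YAP (SE 0.67) and 0.53 with E6-E7 (SE 0.67). For Areg the values were -1.24 (SE 0.47) and 0.53 (SE 0.47), and for Hes1 -1.59 (SE 0.65) and 0.37 (SE 0.63). The lowest adjusted p of any gene in edgeR was 0.911 for YAP. When the upper limits on genes and UMIs were lifted, which added 1 cell each to E2 and EY1, the count for YAP became 3, with Ifitm1, Ifitm2 and Scin higher (log2 fold changes 5.98, 4.48 and 5.15, adjusted p = 0.0489 for each in edgeR). These 3 genes are named because of that result.

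Ligands of the cells' receptors were also measured in the epithelium, in keratin-high cells that numbered 81 in EY1 to 2469 in E1. In keratin-high cells without Ptprc, Tslp stood at 4.83 and 4.74 CPM in the N pair, 4.59 and 3.14 in the E pair, 10.1 and 14.9 in the Y pair and 8.14 and 13.6 in the EY pair. The Y and EY libraries did not overlap with the N and E libraries, with a mean of 11.7 ± 3.12 (SD, n = 4) against 4.33 ± 0.795. The exact permutation p was 0.0286, the smallest this design allows, and it was 0.212 after adjustment over 52 tests. The same permutation p and adjusted p were found for 3 other ligands. Tnfsf15 stood at 5.96 ± 3.51 with the YAP transgene against 0.783 ± 0.183 without it, while Icosl stood lower, at 2.14 ± 0.779 against 5.71 ± 2.45 (SD, n = 4 each). Tnfsf18 ran from 0.905 to 13.98 with it, the highest in Y2, and did not pass 0.314 without it. The receptors Csf2rb, Ramp3 and Lifr also had this p, and no test passed after adjustment. The share of all genes in keratin-high cells that separated the libraries in this way was not counted. The values are therefore a description and not a result about ligands or receptors as a set. The EY1 values rest on few UMIs, with 9 of Tslp, 4 of Tnfsf15, 3 of Icosl and 1 each of Tnfsf18 and Csf2rb. Lack of overlap between the libraries therefore rests in part on counts near the floor. Il33 stood at 0.628 to 6.12 without the YAP transgene and 3.34 to 21.7 with it (exact permutation p = 0.0857, adjusted p = 0.343). Il25 had 1 UMI in these cells, in N1, and Nmu did not pass 0.905 CPM. Kitl, the ligand of Kit, stood at 13.4 to 24.9 CPM over the 8 libraries, and Adm, which encodes adrenomedullin, at 10.7 to 117.

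Among the listed receptors for products of these cells, Ramp1 and Calcrl were described above, and Il4ra was in 9 of the 51 cells. Il9r was in 18 and is also on the list, although its ligand gene Il9 had no UMI in the 51 cells. Of the 5 listed genes found in at least 10% of the cells, 4 were higher than in the other cells with Ptprc in at least 6 libraries, where 11.6% of all genes were. Il13ra1, a chain of the IL-13 receptor, stood at 25.3 to 43.3 CPM in keratin-high cells and at 56.9 to 119 in myeloid cells, and had no UMI in the 51 cells. Csf2rb, the shared chain of the GM-CSF and IL-5 receptors, stood at 188 to 514 in myeloid cells and at most 1.51 in keratin-high cells. Il5ra had no UMI in any cell with Ptprc. Egfr, the receptor of amphiregulin, stood at 32.2 to 61.8 in keratin-high cells and was in 1 of the 51 cells.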

How the data were processed

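Sorted viable cells of tongue epithelium were profiled by 10x 3′ droplet sequencing in 8 libraries. The authors aligned the reads to mm10 with Cell Ranger 5.0.0 and deposited 1 matrix of raw UMI counts for each library. The labels and the study's methods name different kit versions, so the chemistry is not given here. Counts are of transcript 3′ ends and carry no length correction. The 51 cells, the gene lists and the tests were chosen with earlier results of these data known. Any gene on the fixed lists could be named, together with the 20 genes of highest ratio over the other cells with Ptprc (0.5 UMI added to each sum, at least 100 CPM and a UMI in at least 30% of the cells).

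Counts were summed over the selected cells of each library and scaled by their total to give CPM, where 1 UMI is worth 5.08 in E2 and 105 in E1. Classes were set by single genes: gamma-delta T cells by Cd3d and Trdc, CD8 T cells by Cd3d and Cd8a, and myeloid cells by at least 2 of Csf1r, Cd68, Itgam, Csf3r and Adgre1 without Cd3d and Ncr1. Shares of cells with a UMI were compared after thinning to 2000 UMIs, which all 51 cells reached. The shares over libraries were tested by 2-sided exact permutation with Benjamini-Hochberg adjustment. Gene sums were tested with edgeR 4.0.16 (quasi-likelihood, TMM) and DESeq2 1.42.0 in R 4.3.3, checked on simulated counts. Doublets were not removed; Scrublet, run through scanpy 1.11.5, marked none of the 51 cells. It marked 0.0280% of all cells in E1, 0.0736% in EY1 and 0.274% in E2, too few for it to have worked there, so doublets were in effect not checked in these libraries. Python 3.11.15, numpy 2.4.6, scipy 1.17.1, pandas 2.3.3 and matplotlib 3.10.9 were used. Gene positions come from GENCODE vM21 on GRCm38. The alternatives changed the rule, the limits, the denominator, the depth, the libraries and the gene test. Some genes of the lists are not reported here.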

Additional observations from a re-analysis of the deposited data

Results flagged for a closer look

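Cells outside the limits on genes, UMIs and mitochondrial share were not used in the comparisons. Among those with Ptprc and low keratin, 5 of 240 in E2 (2.08%) met the marker rule, above the 0.833% and 0.187% of N1 and N2, which is what drew attention to it. Of these 5 cells, 4 were over the mitochondrial limit. The same rule was met by 3 such cells in Y2, 1 in EY1 and none in E1, Y1 and EY2.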

How the results depend on the processing

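No YAP comparison of the shares changed direction or passed the threshold under any of 19 alternatives (cells with Ptprc, -1.75 points for cells chosen without the 4 marker genes to -0.037 with T cell receptor transcripts excluded, exact permutation p 0.0571 to 0.543) or 18 alternatives (T cells, -1.72 to -0.083 points under the same pair, p 0.171 to 0.714). Leaving out each library in turn gave -1.11 to -0.56 and -1.48 to -0.70 points; the smallest YAP differences came without E2. The E6-E7 difference among cells with Ptprc was near 0 and turned positive under 12 of 19 alternatives, at 0.28 points with at least 3 of the 4 genes, 0.23 with Il13 or Il5 and Il1rl1 or Calca, 0.037 with T cell receptor transcripts excluded, 0.053 with a minimum of 500 genes, 0.035 without upper limits, 0.0029 with a keratin limit of 2%, 0.17 with all cells as denominator and 0.091 after thinning, and -0.42 to 0.34 leaving out each library. Among T cells the E6-E7 difference turned to -1.74 points when cells were chosen without the 4 marker genes, and ran from -0.23 to 0.76 leaving out each library, turning negative without E2 and without Y1. The cause was not tested. The exact permutation p of E6-E7 stayed at or above 0.143 under all of these. The 204 cells chosen without the 4 marker genes were a wider set that may include other cell types.

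The gene test with 10 or 20 cells per library, with T cell receptor transcripts excluded, or without any of its 4 libraries could not be fitted. With 5 cells, DESeq2 size factors, the DESeq2 test, no filter on low counts and Scrublet each gave 0 genes for YAP and for E6-E7; lifting the upper limits gave 3 for YAP. No paired analysis was possible because replicate numbers were given by accession order. The libraries held 0 to 18 of the cells each, which limits the precision of every share.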
